A study of Mus musculus and Homo sapiens with 40 samples.

Results

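The data described here were the ATF4 binding sites at 10 human genes of the stress response: *DDIT3*, *TRIB3*, *CHAC1*, *PPP1R15A*, *ATF3*, *ATF5*, *SESN2*, *DDIT4*, *NUPR1* and *VLDLR*. The genes were taken by name, and each was followed with 50 kb on both sides, using the GENCODE annotation of hg38. A peak counted as a site of a gene when its summit, the position of highest enrichment, lay in that window. The 10 genes were among 20033 protein-coding genes, and their windows held 26 of the 16305 ATF4 peaks on the standard chromosomes.

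ChIP-seq was performed on 1 library of KO-52 cells, a human acute myeloid leukemia line with mutations in both copies of *CEBPA*. The cells were given tunicamycin, which blocks N-linked glycosylation of proteins in the endoplasmic reticulum (ER), at 2 µg/mL for 4 h, and chromatin was taken with an antibody against ATF4 after DSG and formaldehyde crosslinking. Input chromatin of the same cells served as background for peak calling. The series of 40 samples otherwise came from mouse HPC-7 progenitors with CEBPA p42 or p30 joined to ERT2, which the study's methods bring into the nucleus with 4-hydroxytamoxifen. The labels of these cells otherwise gave untreated, except that those for the anti-CEBPA antibody named no treatment. H3K27ac was also measured after LPS, a bacterial activator of TLR4, at 100 ng/mL for 2 h. The ATF4 list has no replicate and no untreated or ATF4-deficient counterpart here, so the values below carry no test, and they do not separate binding after tunicamycin from binding before it. The list holds peaks only, so neither the expression of these genes nor the identity of the cells could be checked with it. It gives no read totals either, and the study's methods state depth only as a range over all samples.

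ATF4 is a bZIP transcription factor whose translation rises when kinases of the integrated stress response phosphorylate eIF2α and general protein synthesis falls. It binds DNA as a dimer, often with a CEBP protein, at a composite CEBP-ATF element in which an ATF half-site is joined to a CEBP half-site. Among its known targets are further transcription factors (*DDIT3*, which encodes CHOP, *ATF3*, *ATF5*), proteins that limit the response (*TRIB3*, *PPP1R15A*), inhibitors of the growth kinase mTORC1 (*SESN2*, *DDIT4*) and effectors of damage or metabolism (*CHAC1*, *VLDLR*). *NUPR1* encodes a small stress-induced chromatin protein.

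Of the 10 genes, 9 had at least 1 ATF4 site in the window, where 57.6% of all protein-coding genes had one. The genes stood further apart from that background in strength and place. They include known ATF4 targets and were chosen with earlier results of these data known, so the contrast is a description only. A site in the gene's own promoter, from 1000 bp upstream to 100 bp downstream of an annotated start, was found for 7 of 10 genes (95% Wilson interval 39.7 to 89.2%) and for 4.40% of all genes. A promoter site among the strongest 10% of the list, ranked by the −log10 of the p-value that the peak caller gave, was found for 6 of 10 and for 0.784% of all genes. Intervals here and below cover counting error only. Those over sites treat each site as separate, although several sites share a gene.

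The sequences under the strongest sites are shown because most of them hold the composite element TGATGCAA close to the summit. Each run gives 30 bases of hg38, read on the strand on which the element reads TGATGCAA, with the matching bases in capitals. Sites of a gene are numbered from the lowest to the highest position on the chromosome. The match at site 4 of *TRIB3* occurs 3 times, 33 bp apart, and the 3 copies and their flanks are identical over the 30 bases printed.
TRIB3 site 4, chr20:380881-380910, minus strand: cccggtccgggTGATGCAAaccggagctaa
TRIB3 site 4, chr20:380914-380943, minus strand: cccggtccgggTGATGCAAaccggagctaa
TRIB3 site 4, chr20:380947-380976, minus strand: cccggtccgggTGATGCAAaccggagctaa
CHAC1 site 1, chr15:40953251-40953280, minus strand: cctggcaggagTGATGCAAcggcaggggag
DDIT4 site 2, chr10:72272967-72272996, plus strand: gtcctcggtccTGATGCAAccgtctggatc
DDIT4 site 5, chr10:72320973-72321002, plus strand: gcccatctggcTGATGCAAggcttgcactt
DDIT3 site 2, chr12:57488053-57488082, minus strand: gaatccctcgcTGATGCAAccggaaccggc
DDIT3 site 4, chr12:57520802-57520831, plus strand: gggggcggggaTGATGCAAtgtttggcaac
SESN2 site 1, chr1:28249580-28249609, plus strand: ctcaacatagcTGATGCAAgagttgagagt
ATF3 site 1, chr1:212608729-212608758, plus strand: tataaaaggggTGATGCAAcgctctccaag

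The strongest *SESN2* site, the only *PPP1R15A* site and *TRIB3* sites 5 and 1, ranked 441st and 1048th, had no exact match in the 200 bp around the summit. They were the member sites of the strongest 10% that lacked one. At *SESN2* site 3, the promoter site, the same window held 2 sequences that differ from TGATGCAA by 1 base. Counting positions from 1 at the 5′ end of the element, with the base of the element written before and that of the site after the position, the change was A3C in the copy 8.5 bp from the summit and C6A in the copy 93.5 bp from it.
SESN2 site 3, chr1:28259296-28259325, minus strand: cctcgggtgaaTGCTGCAAacttttgcaag
SESN2 site 3, chr1:28259211-28259240, minus strand: ttagggttgcgTGATGAAAagggacttcac

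The 26 sites were spread unevenly over the genes. *TRIB3* and *DDIT4* had 5 sites each, *DDIT3* and *SESN2* 4 each, *CHAC1*, *ATF3* and *VLDLR* 2 each, and *PPP1R15A* and *ATF5* 1 each. The windows of 4 of the 10 genes thus held 4 or more sites, as did 4.87% of all windows. Per megabase of window there were 22.1 sites at the 10 genes and 6.32 over all genes. Of the 26 sites, 14 belonged to the strongest 10% of the list (53.8%, 35.5 to 71.2%) and 7 to the strongest 1%. *TRIB3* alone held 5 of the 14. A site of the strongest 1% lay in the window of 5 of the 10 genes and of 1.63% of all genes, and a site of the strongest 10% in that of 7 and of 10.9%. Among the amino acid and tRNA-charging genes, a list described below, these shares were 51.9% and 88.9%. They were lower than at the 10 genes in the other lists described there. The weak end of the list was represented as well, with 3 sites among its weakest 10%, at *DDIT3*, *SESN2* and *DDIT4*.

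**Figure D1:**
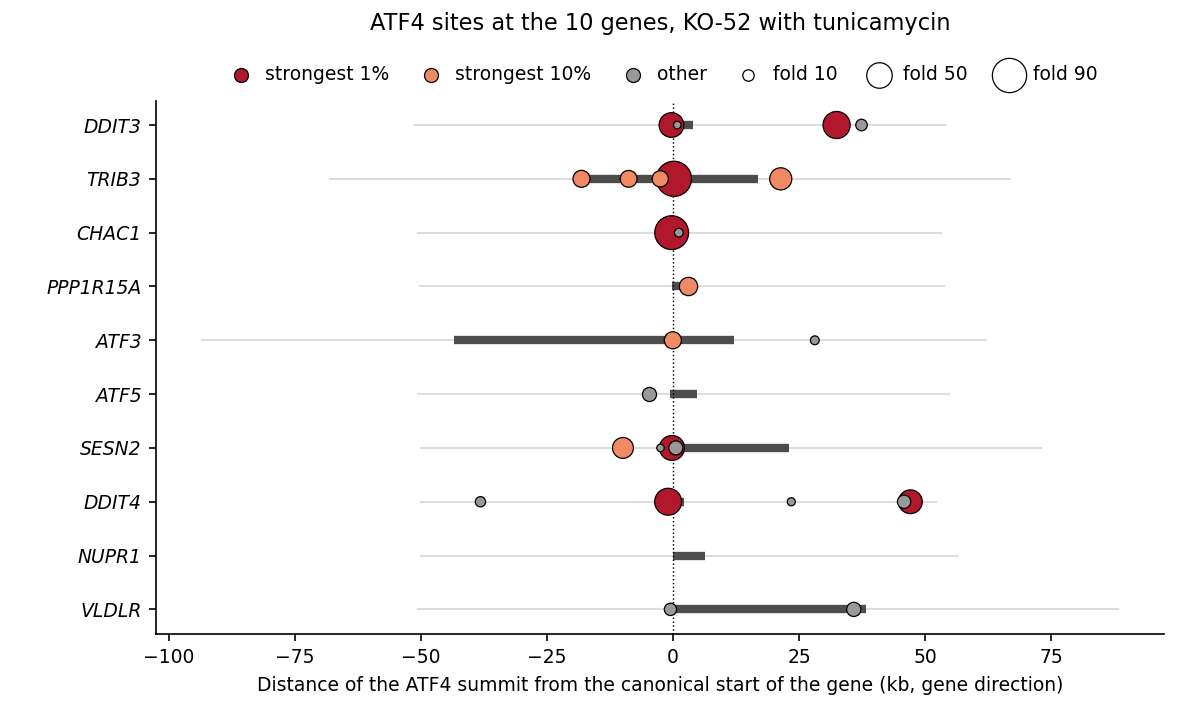
ATF4 sites at the 10 genes. The x axis gives the distance of each summit from the canonical start of the gene in kb along the direction of the gene, grey lines the window searched, dark bars the gene, circle area the fold enrichment over input, and colour the rank class. Strong sites lie at the start of *TRIB3*, *CHAC1*, *DDIT3*, *SESN2* and *DDIT4*, and *NUPR1* has no site.

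The transcription factor genes differed among themselves. *DDIT3* (chr12:57516588-57521737, minus strand), whose product CHOP pairs with CEBP and ATF4 proteins, had a promoter site 312 bp upstream of its canonical start. That site, at chr12:57520594-57520994, had a fold enrichment of 46.8 over input and ranked 155th of 16305. Its nearest protein-coding start was not that of *DDIT3* but that of the neighbouring *MBD6*, 116 bp away. The best-ranked site in the *DDIT3* window ranked 128th, with a fold enrichment of 56.4, and lay 32436 bp downstream of the *DDIT3* start and 7 bp from the start of *MARS1*, which encodes methionyl-tRNA synthetase. None of the 4 sites in the window was nearest to a *DDIT3* start, since the intronic site, ranked 15284th, was nearest to an overlapping gene model and the last, ranked 5424th, to *ARHGAP9*.

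*ATF3* (chr1:212565334-212620777), which encodes a bZIP repressor and activator of stress genes, had a site 35 bp upstream of its canonical start. It spanned 493 bp, with a fold enrichment of 22.4 and rank 718. The peak held TGATGCAA at 17.5 and 164.5 bp from the summit. A weak second site, ranked 12578th, lay 28117 bp downstream of the start, beyond the end of the gene. Just outside the window, 62648 bp from the gene and 4084 bp from the start of *BATF3*, lay a site of rank 153 and fold enrichment 25.5, which the window rule left out.

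*ATF5* (chr19:49928702-49933935), which encodes a bZIP factor of the mitochondrial stress response, had only a site 4760 bp upstream of its canonical start. It ranked 2268th, at 13.9% of the list, with a fold enrichment of 15.2, and so was the lowest of the best-ranked sites of the 9 genes. It held TGATGCAA 39.5 bp from its summit. *NUPR1* (chr16:28532708-28539008, minus strand) had no site in its window or within 100 kb, and the nearest summit lay 216470 bp from the gene. The list gives only peaks that passed the peak caller, so weaker binding at *NUPR1* cannot be read from it.

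Of the genes that limit the response, *TRIB3* (chr20:362835-397559) encodes a pseudokinase that binds ATF4 and restrains it. All 5 of its sites belonged to the strongest 10%. The summit of site 4, at chr20:380661-381336, lay 179 bp downstream of the canonical start, in the untranslated part of exon 1, and also in the promoter window of another annotated start. It ranked 5th of 16305 with a fold enrichment of 95.1, the highest of the 26. The other sites ranked 1048th, 1109th, 1522nd and 441st, at 18144, 8805 and 2531 bp upstream and 21361 bp downstream of the canonical start. The farthest upstream site was also a promoter site, 219 bp upstream of an alternative *TRIB3* start. The downstream site, with a fold enrichment of 37.6, was nearest to the start of *RBCK1*, at 5377 bp. The triple match of site 4 was uncommon in the list, where 18 of 16305 peaks (0.11%) held 3 or more copies of TGATGCAA.

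*PPP1R15A* (chr19:48872212-48876059) encodes GADD34, which brings protein phosphatase 1 to eIF2α and so reverses the phosphorylation that starts the response. It had no promoter site. Its only site, at chr19:48874960-48875546, lay 2913 bp downstream of the canonical start, in intron 2 of the canonical transcript and in an exon of another. It ranked 200th by p-value but 821st by fold enrichment, which was 25.6. No other member site in the strongest 10% had its rank by fold as many times its rank by p-value. No sequence within 1 mismatch of TGATGCAA lay in the 200 bp around its summit, whereas 93.4% of all sites and 98.3% of the strongest 10% had one.

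The genes of the mTORC1 inhibitors each had a strong promoter site and a strong distal site. *SESN2* (chr1:28259518-28282491), the gene of a leucine-responsive inhibitor, had its best site at chr1:28259010-28259469, 199 bp upstream of the start, with a fold enrichment of 47.6 and rank 111. The distal site, 9924 bp upstream at chr1:28249043-28250028, was wider, at 986 bp against 460 bp, and ranked 173rd with a fold enrichment of 33.4. It held an exact TGATGCAA centred 0.5 bp from the summit. A site 560 bp downstream of the start ranked 2087th and held TGATGCAA 4.5 bp from its summit, and the last, 2480 bp upstream, ranked 15648th. The 100 bases around the summits of the strong pair are printed to show the exact element in the distal site and the A3C form in the promoter site, both on the plus strand, with matching bases in capitals.
SESN2 site 1, chr1:28249544-28249643: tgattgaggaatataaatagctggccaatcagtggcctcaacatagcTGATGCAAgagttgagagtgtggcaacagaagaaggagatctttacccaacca
SESN2 site 3, chr1:28259269-28259368: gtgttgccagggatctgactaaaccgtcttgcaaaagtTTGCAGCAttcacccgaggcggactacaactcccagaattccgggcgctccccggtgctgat

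*DDIT4* (chr10:72273919-72276036), which encodes REDD1, another brake on mTORC1, had its best site at chr10:72272268-72273542, 964 bp upstream of the canonical start. This was the widest of the 26 sites at 1275 bp, with a fold enrichment of 55.6 and rank 32. A distal site at chr10:72320625-72321444 ranked 97th, with a fold enrichment of 43.4. It lay 47064 bp downstream of the *DDIT4* start and 15877 bp from that of *DNAJB12*, the nearest gene, so it could be assigned to either. It was also the site closest to the edge of the window, 44952 bp beyond the end of the gene, and the closest site outside any window lay 50724 bp from *ATF3*. The remaining *DDIT4* sites ranked 8112th, 15041st and 2804th, and none of these held an exact TGATGCAA. The 100 bases around the summit of the promoter site follow, on the plus strand.
DDIT4 site 2, chr10:72272910-72273009: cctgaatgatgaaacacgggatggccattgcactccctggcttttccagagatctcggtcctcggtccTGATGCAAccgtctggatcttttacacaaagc

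*CHAC1* (chr15:40952962-40956512), whose product degrades glutathione, had the best-ranked site of the 10 genes. Its peak at chr15:40952343-40953600 spanned 1258 bp, with a fold enrichment of 87.7 and rank 4, and its summit lay 265 bp upstream of the canonical start. TGATGCAA was centred 59.5 bp from the summit, farther than at the other strong promoter sites with an exact match. A second site in intron 2, 1154 bp downstream of the start, ranked 13817th.

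*VLDLR* (chr9:2621182-2660056), the gene of the very low density lipoprotein receptor, had the weakest promoter site, 507 bp upstream of the canonical start, with a fold enrichment of 11.5 and rank 4145. Its better site, of rank 1639 and fold enrichment 15.5, lay 35845 bp downstream of the canonical start in the untranslated part of exon 19, just outside the strongest 10% of the list. The pair of *VLDLR* sites resembled each other in sequence. Over all 325 pairs of the 26 sites, scored with 1 for an identical and -2 for a differing base, the ungapped match between the 200 bp windows with the highest score, 35, was between these, with 43 of 47 bases identical (91.5%). Next, at a score of 34, were *DDIT3* site 1 and *CHAC1* site 2 on opposite strands, with 64 of 79 bases identical (81.0%). In the *VLDLR* pair the element lay within the shared stretch, as TGATGCAA in the promoter site and with the change T4C in the exon 19 site.
VLDLR site 1, chr9:2621338-2621367, minus strand: gcagttagcgcTGATGCAActatcgttgct
VLDLR site 2, chr9:2657627-2657656, minus strand: gcagttagcacTGACGCAActatcgctgct

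Fold enrichment, width and place of the 26 sites were set beside the whole list. The median fold enrichment was 20.8 at these sites (range 4.29 to 95.1), 7.81 over all sites and 25.7 over the strongest 10%. The median width was 422 bp, against 229 bp over all sites and 406 bp over the strongest 10%. Summits lay within 1 kb of a start of their gene at 11 of the 26 sites and more than 10 kb away at 8. These distance counts were not made over the whole list. By protein-coding annotation, 9 summits were in a promoter of any gene, 3 in exons, 7 in introns and 7 in intergenic sequence. Over the whole list the shares were 5.24% in promoters, 3.13% in exons, 40.8% in introns and 50.9% in intergenic sequence. Among the strongest 10%, promoters held 9.02%.

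**Figure D2:**
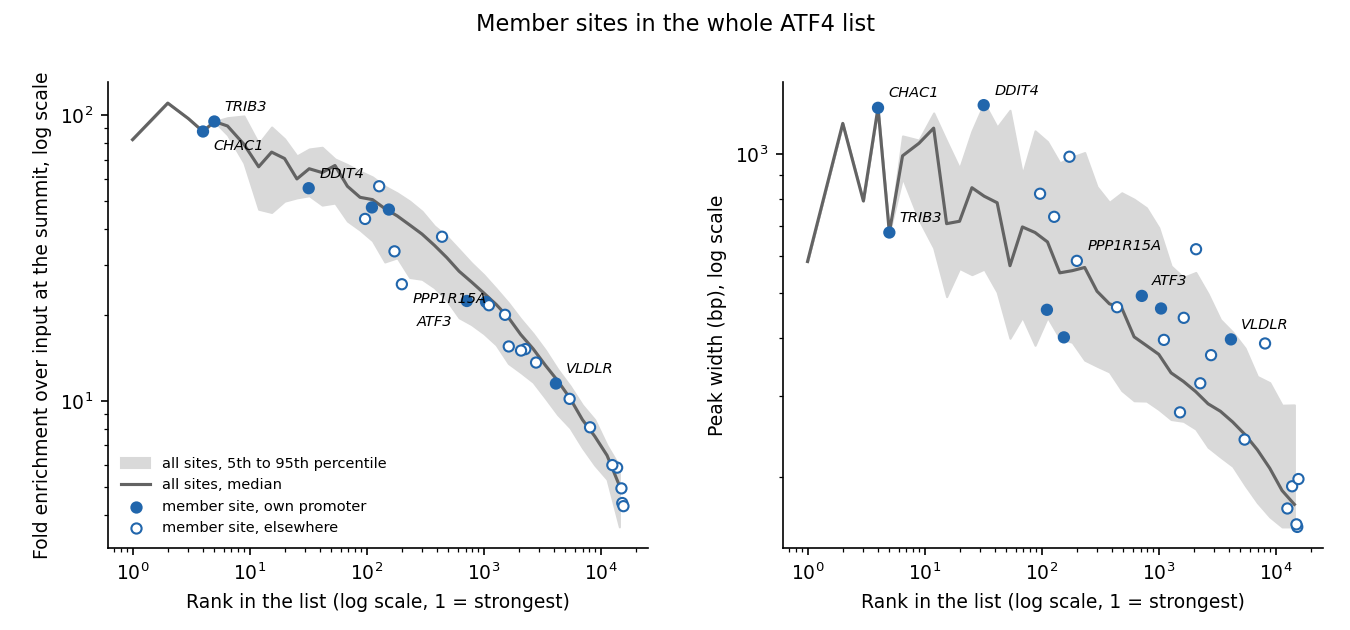
Fold enrichment over input (left) and peak width in bp (right) against the rank in the ATF4 list, all on log scales. The grey band and line give the 5th to 95th percentile and the median over all sites, filled circles the member sites in their own promoter and open circles the other member sites. Member sites extend from rank 4 at *CHAC1* to rank 15648 at *SESN2*, and *PPP1R15A* lies below the band of fold enrichment for its rank.

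When all 882 genes with a promoter site were ordered by that site, with genes that share a site taking the same place, *CHAC1* was 2nd, *TRIB3* 3rd and *DDIT4* 5th of 828 places. *SESN2* was 20th, *DDIT3* 31st, *ATF3* 92nd and *VLDLR* 281st. The places around them were held by the site shared by *S100PBP* and *YARS1*, the gene of tyrosyl-tRNA synthetase, at rank 1 of the list, *SHMT2*, the gene of the mitochondrial serine hydroxymethyltransferase, at rank 18, *STK40* at rank 33, and the site shared by *WARS1*, the gene of tryptophanyl-tRNA synthetase, and *WDR25* at rank 47.

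Exact TGATGCAA, on either strand within 200 bp around the summit, was found at 15 of the 26 sites (57.7%, 38.9 to 74.5%). The share was 65.2% over all sites, 77.2% over the strongest 10% and 0.767% in windows 5 kb to either side. The share at the 26 sites was thus not above that of the list. Among the 14 member sites in the strongest 10%, 10 had the element. With at most 1 mismatch the share was 88.5% (23 of 26), against 93.4% over all sites and 16.4% in the windows 5 kb away. The 3 sites without such a sequence were the *PPP1R15A* site and *DDIT4* sites 3 and 4.

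Apart from CCAAT, the other elements counted were rare in the same windows. The cyclic AMP response element TGACGTCA and the ER stress element, CCAAT and CCACG 9 bases apart, were absent from all 26 windows and were found at 0.141% and 0.0123% of all sites. The AP-1 element, TGACTCA or TGAGTCA, was found at 2 sites (*DDIT3* site 4 and *DDIT4* site 5) and at 4.78% of all. A CEBP element, TTGCGCAA or TTGCACAA, was found at 1 site (*TRIB3* site 2) and at 1.51% of all, and CCAAT at 4 sites and at 27.2% of all, where the windows 5 kb away had 27.3%. All were counted on both strands, and an ER stress element also counts as CCAAT. An absent match says only that these letters are not in the window.

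**Figure D3:**
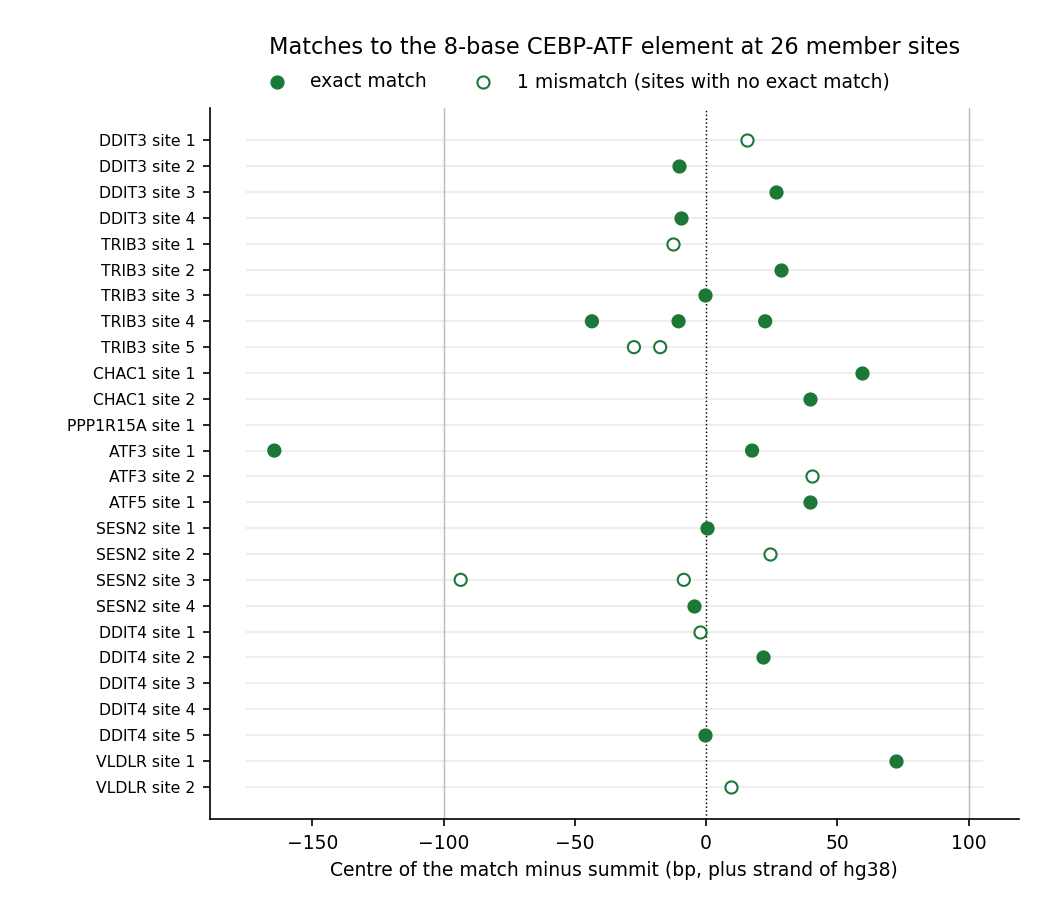
Positions of TGATGCAA (filled circles) at the 26 member sites, as the centre of the match minus the summit in bp on the plus strand of hg38; grey vertical lines bound the 200 bp window. Where a site has no exact match, sequences with 1 mismatch are drawn as open circles; most matches lie within 50 bp of the summit, and *PPP1R15A* site 1 and *DDIT4* sites 3 and 4 have neither.

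The base that follows the element was looked at after its values were seen. It was T at 4 of the 15 member sites with a match (26.7%, 10.9 to 52.0%). T followed the match nearest the summit at 69.2% of all sites with a match, at 53.5% of those in promoters and at 46.2% (36.3 to 56.3%) of those in promoters that were in the strongest 10%. At *TRIB3* site 4 the base was A, which followed the match at 1.18% of all sites with one. Only 6 of the 15 member sites with a match lay in their own promoter, of which 1 had T (16.7%, 3.01 to 56.4%). Among member sites in the strongest 10%, T followed at 2 of 10 (20.0%, 5.67 to 51.0%), beside 70.2% (67.6 to 72.7%) of all such sites with a match. The interval of the 10 strong member sites lies below that of the strongest 10% of the list. It overlaps that of the strong promoter sites, as does the interval of the 15 sites. Because the base was picked after its values were seen, these intervals cannot decide whether the member sites differ.

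The 10 genes were set beside 4 lists, of which none was chosen blind to these data. Of 25 other genes of the integrated stress response, 23 had a site in the window, 9 a promoter site and 5 a promoter site in the strongest 10% (*CEBPG* at rank 183, *JDP2* at 225, *VEGFA* at 549, *PPP1R15B* at 658 and *ATF6* at 814). The windows of *ATF4* itself and of *EIF2S1*, which encodes eIF2α, held no site. Of 27 amino acid and tRNA-charging genes, 26 had a site, 18 a promoter site and 16 a promoter site in the strongest 10%, a share of 59.3% (40.7 to 75.5%) that was close to the 60.0% (31.3 to 83.2%) of the 10 genes. Those 16 were *YARS1*, *SHMT2*, *WARS1*, *TARS1*, *SLC3A2*, *SLC7A11*, *CARS1*, *MARS1*, *ASNS*, *SLC1A5*, *IARS1*, *SLC38A2*, *PHGDH*, *AARS1*, *NARS1* and *PSAT1*. Of 19 ER chaperone and degradation genes, 10 had a site, 3 a promoter site and 1, *HERPUD1*, a promoter site in the strongest 10%. For all protein-coding genes these shares were 57.6%, 4.40% and 0.784%. In the window, a site of the strongest 1% was found for 2 of the 25, 14 of the 27 and 3 of the 19 genes, and for 5 of the 10. The share of all genes was 1.63%. For the strongest 10% the counts were 14, 24 and 5, and 7 of the 10, where 10.9% of all genes had one.

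Family counterparts of the genes were looked up in the same way. Of 12 counterparts, 9 had a site in the window, and 3 had a promoter site (*CEBPG*, *JDP2* and *PPP1R15B*). The share of 3 in 12 (8.89 to 53.2%) stood beside 4.40% of all genes. The 3 sites were all in the strongest 10%, where the share of all genes was 0.784%, and these 3 genes are also in the list of other stress response genes. Where *TRIB3* had 5 sites with a best rank of 5, *TRIB1* and *TRIB2* had 1 each, at ranks 11288 and 11439. Where *SESN2* had 4 with a best rank of 111, *SESN1* had none and *SESN3* had 2 with a best rank of 7772. *CHAC2* and *DDIT4L*, the counterparts of *CHAC1* and *DDIT4*, had none. *LRP8*, which encodes a receptor related to VLDLR, had 1 at rank 5702. *JDP2*, a bZIP gene related to *ATF3*, had its promoter site at rank 225, ahead of the *ATF3* site at rank 718. *PPP1R15B*, which encodes the constitutive eIF2α phosphatase subunit, had a promoter site at rank 658 and *PPP1R15A* had none, although the best site of *PPP1R15A* ranked higher, at 200. *NUPR2* had a site at rank 10942 where *NUPR1* had none.

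**Figure D4:**
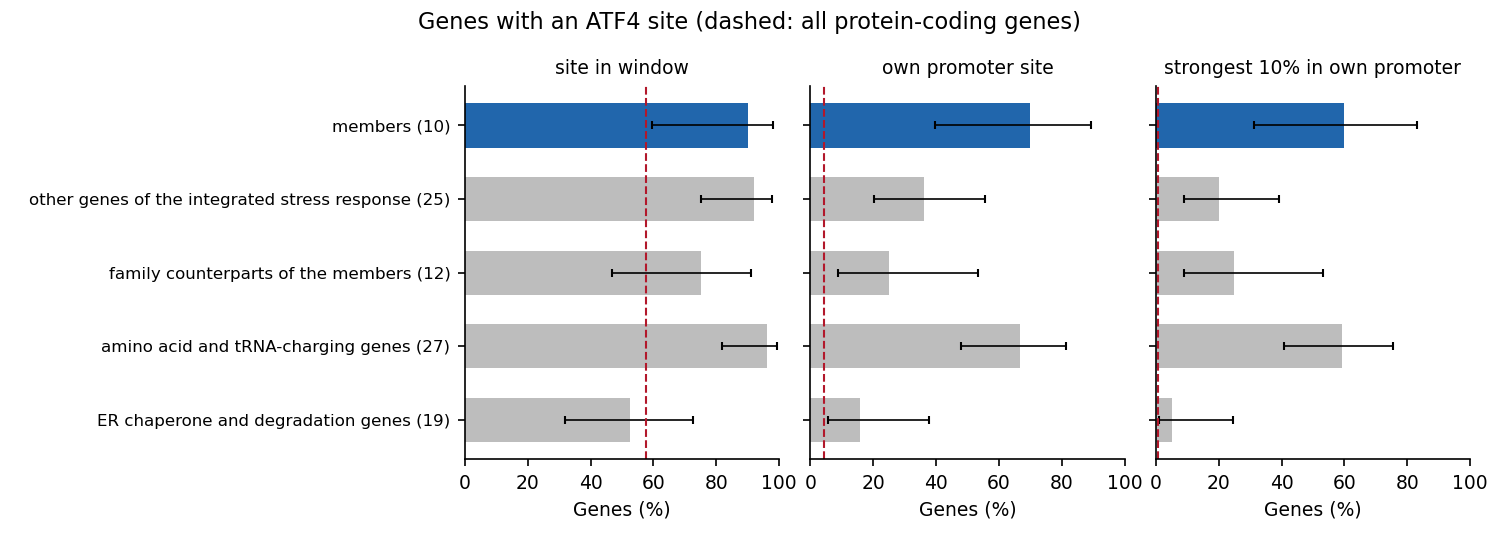
Share of genes (%) with an ATF4 site in the window (left), in the own promoter (middle) and in the own promoter among the strongest 10% of the list (right), for the 10 genes (blue) and 4 other lists (grey), with the number of genes in brackets. Bars carry 95% Wilson intervals, and dashed lines mark all protein-coding genes at 57.6, 4.40 and 0.784%; the 10 genes and the amino acid and tRNA-charging genes lie far to the right of the dashed line in the promoter panels.

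The mouse counterparts of the 10 genes were looked up in the lists of the HPC-7 progenitors, which carried CEBPA p42 or p30 joined to the estrogen receptor domain ERT2, and were not given tunicamycin. These lists report other proteins in another species, so they are given side by side with no comparison of levels. With anti-CEBPA, *Ddit3* and *Trib3* had a promoter peak in both lines and *Atf5* in p30 cells, which was 3 of 10 in p30 and 2 of 10 in p42 cells, where 9.11% and 10.0% of mouse genes had one. The *Ddit3* peak ranked 1199th of 31851 in p30 and 3068th of 47517 in p42 cells. It lay 345 and 342 bp upstream of the start of the *Ddit3* entry used here. The nearest start of any entry, also named *Ddit3*, was 57 and 54 bp away. With an antibody against the estrogen receptor part, 5 of 10 genes in p30 and 3 of 10 in p42 cells had a promoter peak, beside 13.6% and 8.75% of all genes, and *Ddit3* and *Trib3* were again among them in both lines. H3K27ac, a mark of active regulatory regions, had a promoter peak at 7 of 10 genes in untreated p30 and 8 of 10 in untreated p42 cells, beside 40.1% and 40.0%. Promoter peaks were counted by summit, and *Ppp1r15a* was the gene counted in untreated p42 but not untreated p30 cells. Its 4301 bp peak in untreated p30 cells, chr7:45172433-45176733, covered the gene start but had its summit 225 bp downstream. *Chac1*, whose human counterpart had the best-ranked ATF4 site of the 10 genes, had no promoter peak in any of the 10 mouse lists, and its best anti-CEBPA site lay 5866 bp in p30 and 5904 bp in p42 cells downstream of a start. *Vldlr* had no H3K27ac peak in its window in any of the 4 H3K27ac lists, of which 2 came from cells given LPS.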

How the data were processed

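The submitters' processing notes name Trim Galore 0.6.6, Bowtie2, Picard and MACS2. The study's methods describe trimming, alignment to hg38, removal of duplicates and narrow peak calling against input. Per peak the authors deposited the fold enrichment at the summit and −log10 values of p and q. The deposited p-value and q-value come from the peak caller and 1 library, and the list gives no read total behind them.

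Peaks on chromosomes 1 to 22, X and Y were ranked by −log10 p, with ties by fold. Genes came from GENCODE releases 44 and M39, and sequence from hg38. Matches were counted on both strands, also in windows shifted by 5 kb. Python 3.11.15, pandas 2.3.3 and numpy 2.4.6 were used. The window, promoter, distance, nearest-start and motif-matching steps were tested on simulated data with known answers, and the other steps were not.

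All 10 genes were named, with the best-ranked site of each and every promoter site in full. Other genes were named as the nearest start to such a site, as list genes with a promoter site in the strongest 10%, or as the 5 others with the best-ranked promoter site, which became 6 because the last place was shared. Remaining genes were named after their values were seen. The genes and lists were chosen with earlier results of these data known. Alternatives were a q-value under 1e-05, ranking by fold, other windows, peak overlap, own nearest start only, and other promoter and motif definitions. Mouse H3K27ac and H3K4me1 peaks were called by the authors on pooled libraries.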

Additional observations from a re-analysis of the deposited data

How the results depend on the processing

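Of 41 recomputed values, 37 stayed within 1.5 times the main count or within the 95% interval of the main share. Some of the 37 could not move. Ranking by fold changes only ranks, so it left site counts, promoter counts and the share with TGATGCAA fixed. Another window length cannot change the promoter count. The 26 sites became 19 with a window of 10 kb and 38 with 100 kb, both within the limit used. The median rank was treated as a share of the list, so its interval is only a yardstick. It does not measure the spread of the median over the 9 genes. The 9 genes with a site were 8 when only sites nearest to the gene's own start were kept, and 9 in the other settings. The 7 genes with a promoter site ranged from 6 to 8, and the 7 genes with a site of the strongest 10% from 6 to 7. With only sites nearest to the gene's own start, the number of sites fell from 26 to 17, since 4 *DDIT3*, 3 *DDIT4*, 1 *TRIB3* and 1 *ATF3* site were nearest to another gene. The median rank of the best sites then moved from 0.785% to 0.954% of the list, with no *DDIT3* site left. With a window of 10 kb it was 0.951%. With at most 1 mismatch, the share of sites with the element was 88.5%. Counting the canonical start alone left out the *TRIB3* start site as a promoter site, because its summit lies 179 bp downstream.

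No paired analysis was possible because the ATF4 list comes from 1 library and its values come from no test. Without a replicate, leaving out a library was not possible either. The list holds no read counts and only peaks that passed the caller, so the absence of a peak, as at *NUPR1*, cannot be read as absence of binding.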
